A study of Rattus norvegicus with 12 samples.

Results

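The 82 genes described here encode the proteins of the cytosolic ribosome, with their paralogs and like copies, in the renal cortex of rats given bromodichloromethane (BDCM), a trihalomethane formed when drinking water is chlorinated. Membership went by name, under a rule chosen with earlier results of these data known. A probe was a member when its RefSeq accession led to a symbol of the form Rpl or Rps followed by a number, or to Rplp0 to Rplp2 or Rpsa. Ribosomal protein kinases, pseudogenes and Rps19bp1 were left out. The 82 genes, reached through 242 probes, were among 15284 gene symbols named on the array. Of the 82, 80 genes with 238 probes were tested, and the probe used for each of the 80 was well above background in all 12 animals. The signal of Rpl27l2 was not well above background on any array and that of Rpl39l1 on 3 arrays, so neither was tested.

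The arrays were 1-colour Agilent arrays of total RNA from male Sprague-Dawley (Crl:CD(SD)) rats, bought at 5 weeks of age. Corn oil alone, or BDCM at 200 mg/kg/day, was given for 4 weeks, and the cortex was taken 24 h after the last dose from animals bled under CO2-O2 in one experiment and isoflurane in the other. Each experiment held 3 oil animals and 3 BDCM animals, with 1 array per animal. All groups shared sex, strain and basal diet, and the controls were vehicle controls. The route of dosing is not given in the sources used here.

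A ribosome is built from a small 40S subunit, which holds the decoding site, and a large 60S subunit, which forms the peptide bonds, and nearly all their proteins are needed in equal number. Their messenger RNAs are among the most abundant in any cell. Most begin with a 5′ terminal oligopyrimidine (TOP) tract, a run of C and T bases that starts at the first base of the transcript and through which the kinase mTOR and the RNA-binding protein Larp1 control translation and stability. In the kidney the proximal tubule makes up most of the cortex.

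The start-site sequences show what these genes share that their names did not use. RefSeq promoters of build GRCr8 were held for 66 of the 82 genes, and the lines below give 40 bases before and 25 from the listed transcription start, 5′ to 3′ on the gene's strand. Capitals mark the longest pyrimidine run that touches the 10 bases on either side of the start. Shown are 5 genes with some of the larger rises (Rps24, Rpl12, Rpl10, Rps15a and Rpl27a), Rplp0, often used as a reference gene, the pair Rpl22 and Rpl22l1, Rps19, which rose most, and Rpl18, with the smallest rise among the genes that passed the test.
Rps24, chr16:96477-96541, plus strand: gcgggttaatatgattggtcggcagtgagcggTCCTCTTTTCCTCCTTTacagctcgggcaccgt
Rpl12, chr3:36661900-36661964, plus strand: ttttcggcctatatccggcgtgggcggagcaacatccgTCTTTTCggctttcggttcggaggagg
Rpl10, chrX:157205810-157205874, plus strand: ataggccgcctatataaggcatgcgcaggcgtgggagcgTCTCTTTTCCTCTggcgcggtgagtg
Rps15a, chr1:181860260-181860324, minus strand: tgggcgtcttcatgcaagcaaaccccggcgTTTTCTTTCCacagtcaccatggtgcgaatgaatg
Rpl27a, chr1:172974533-172974597, plus strand: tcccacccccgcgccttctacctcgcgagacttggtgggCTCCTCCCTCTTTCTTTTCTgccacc
Rplp0, chr12:46718366-46718430, minus strand: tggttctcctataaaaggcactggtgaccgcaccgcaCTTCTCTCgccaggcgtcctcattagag
Rpl22, chr5:168117921-168117985, plus strand: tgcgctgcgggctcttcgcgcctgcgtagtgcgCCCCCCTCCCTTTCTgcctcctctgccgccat
Rpl22l1, chr2:113683156-113683220, plus strand: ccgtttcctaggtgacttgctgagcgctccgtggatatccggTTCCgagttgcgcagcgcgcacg
Rps19, chr1:89608648-89608712, plus strand: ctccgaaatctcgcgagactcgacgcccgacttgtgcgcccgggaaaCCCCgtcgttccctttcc
Rpl18, chr1:105325230-105325294, plus strand: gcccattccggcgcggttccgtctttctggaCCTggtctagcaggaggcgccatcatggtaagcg

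A run of at least 6 pyrimidines touching the 10 bases on either side of the start was present in 51 of the 66 member promoters (77.3%). The share was 28.3% of 27457 promoters in the same table. Such a run need not begin at the first base of the transcript, as a TOP tract does. It began with C in 42.4% of members and 15.5% of all promoters. The median run was 10 bases in the members and 4 over all promoters. A run of at least 5 bases was found in 83.3% of members and 43.2% of all promoters, and a run of at least 8 bases in 68.2% and 13.2%. CTTTC on the gene's strand, searched from 10 bases before to 20 after the start, occurred in 37.9% of members and 3.41% of all promoters, whereas the reverse complement GAAAG occurred there in 1.52% and 3.78%. The ETS-factor core CTTCCG, searched on both strands of the whole 300-base window, occurred in 54.5% and 17.4%. On both strands of the same window, smaller differences were seen for the YY1 motif AAGATGGC (7.58% and 3.44%), the E-box CACGTG (7.58% and 6.65%) and TATAAA (10.6% and 14.3%). Matches of CTTTC in the whole window overlapped the pyrimidine run in 27 members and matches of CTTCCG in 3. The runs of Rps19 and Rpl18 at the listed start were short, although a longer pyrimidine stretch ends the sequence printed for Rps19. Rpl36a, not shown, rose more than Rps24 and had a run of 5 bases. The median rise under BDCM, described next, was 0.78 on the log2 scale for the 51 tested members with a run of at least 6 bases and 0.74 for the 13 with a shorter run.

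Ribosomal protein genes were higher in the cortex of BDCM-treated rats almost without exception. Averaged over both experiments (6 BDCM against 6 oil animals), 77 of the 80 tested genes rose at an adjusted p below 0.05 in limma with Benjamini-Hochberg adjustment over all 34218 features, and none fell. Over all features 17.7% rose and 20.4% fell, and over the 12208 tested genes with a symbol 19.3% rose and 20.8% fell. The median gene rose 1.73-fold (0.79 on the log2 scale), while the median of all features was -0.04. All 29 genes of the 40S subunit rose (median log2 difference 0.82, from 0.35 to 1.25). All 44 genes of the 60S subunit rose (median 0.74, from 0.28 to 1.23). Of the 7 tested paralogs and like copies, 4 rose. Among the 77 genes, 12 rose by more than 2-fold, 53 by 1.5- to 2-fold and 12 by less than 1.5-fold. The highest adjusted p among the 77 was 0.00915.

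**Figure D1:**
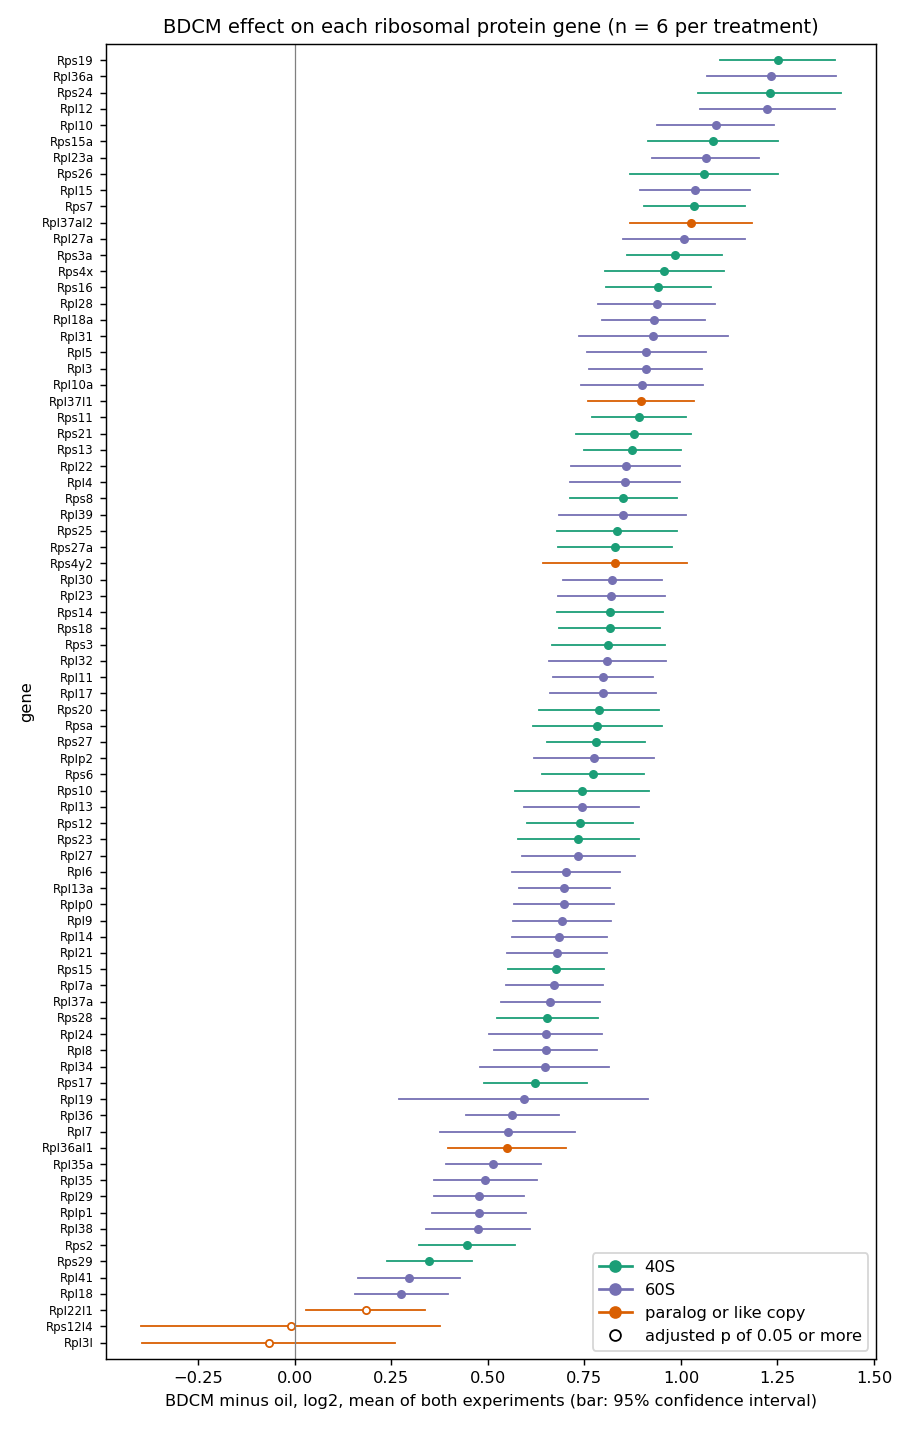
BDCM minus oil on the log2 scale for each of the 80 tested genes, as the mean of both experiments with its 95% confidence interval (6 animals per treatment, limma); colours separate 40S, 60S and paralogs or like copies, and open circles mark adjusted p of 0.05 or more. The 3 open circles are Rpl22l1, Rps12l4 and Rpl3l, and the filled ones run from 0.28 for Rpl18 to 1.25 for Rps19.

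The largest rise was that of Rps19, a 40S protein needed for maturation of the small subunit and the gene most often mutated in Diamond-Blackfan anaemia. Its log2 signal relative to the 75th percentile of each array was 5.89, 5.89 and 5.87 in the oil animals of the CO2-O2 experiment and 6.91, 7.09 and 6.94 in the BDCM animals. In the isoflurane experiment it was 5.97, 6.10 and 6.03 in the oil animals and 7.33, 7.64 and 7.34 in the BDCM animals. The groups were about 1 log2 unit or more apart and did not overlap in either experiment, and the second BDCM animal was the highest in each. The mean rise was 2.38-fold (95% confidence interval 2.15 to 2.64, limma adjusted p 1.76e-06).

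Rps24, a 40S protein whose loss also causes Diamond-Blackfan anaemia, rose 2.34-fold (2.06 to 2.67, limma adjusted p 2.96e-06). Its log2 signals were 5.82, 5.93 and 5.85 in oil and 6.92, 6.96 and 6.85 in BDCM animals under CO2-O2. Under isoflurane they were 5.52, 5.93 and 5.83 in oil and 7.04, 7.36 and 7.12 in BDCM animals. The first oil animal of the isoflurane experiment was lower than the other two, and every BDCM animal lay above every oil animal.

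In the 60S subunit the leading genes were Rpl36a and Rpl12, the latter part of the base of the stalk to which translation factors bind. Rpl36a rose 2.35-fold (2.10 to 2.64) and Rpl12 rose 2.33-fold (2.07 to 2.64). Rpl12 measured 6.07, 6.14 and 6.15 in oil and 7.15, 7.35 and 7.22 in BDCM animals under CO2-O2, and 6.11, 6.25 and 6.20 against 7.48, 7.76 and 7.30 under isoflurane. As with Rps19, the groups did not overlap. The other genes above 2-fold were Rpl10, whose loading completes the 60S subunit (2.13-fold), Rps15a (2.12-fold), Rpl23a at the exit of the peptide tunnel (2.09-fold), Rps26 (2.08-fold), Rpl15 (2.05-fold), Rps7 (2.05-fold), the copy Rpl37al2 (2.04-fold) and Rpl27a (2.01-fold). All 12 of these genes were separated between treatments in both experiments.

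The smallest rises that passed the test were also found in both subunits. Rpl18, a 60S protein, rose 1.21-fold (1.11 to 1.32, limma adjusted p 0.00289). Its log2 signals were 6.82, 6.90 and 6.91 in oil and 7.06, 7.14 and 7.04 in BDCM animals under CO2-O2, and 6.66, 6.77 and 6.66 against 7.02, 7.16 and 6.95 under isoflurane. The groups did not overlap, but the gap was narrow, and with quantile normalization in place of the 75th percentile the difference was 0.02 on the log2 scale with an adjusted p of 0.726. Rpl41, which encodes the smallest ribosomal protein, rose 1.23-fold (1.12 to 1.35, limma adjusted p 0.00313). Its probe was saturated in BDCM animals 2 and 3 of the isoflurane experiment, so its level there is a lower bound. A second, dimmer probe of Rpl41 rose by 0.54 log2 units (limma adjusted p 0.000103). For the saturated probe, with slide as a fixed block the adjusted p was 0.0574. Rps29 (1.27-fold), Rps2 (1.36-fold), Rpl38 (1.39-fold), Rplp1 (1.39-fold), Rpl29 (1.39-fold), Rpl35 (1.41-fold), Rpl35a (1.43-fold), Rpl36al1 (1.46-fold), Rpl7 (1.47-fold) and Rpl36 (1.48-fold) completed the 12 genes below 1.5-fold. All these folds are those of each gene's brightest probe, and other probes rose more for several genes. Across its probes Rplp1 rose by 0.48 to 0.86 log2 units, Rps2 by 0.45 to 0.74 and Rpl29 by 0.48 to 0.71. Rpl35 rose by 0.49 to 0.70, Rpl7 by 0.55 to 0.70 and Rpl18 by 0.28 to 0.49, while Rps29 stayed between 0.35 and 0.41. The SD of the mean effect over the 80 genes was 0.25 log2 units, against a median standard error of 0.06 for a single gene.

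**Figure D2:**
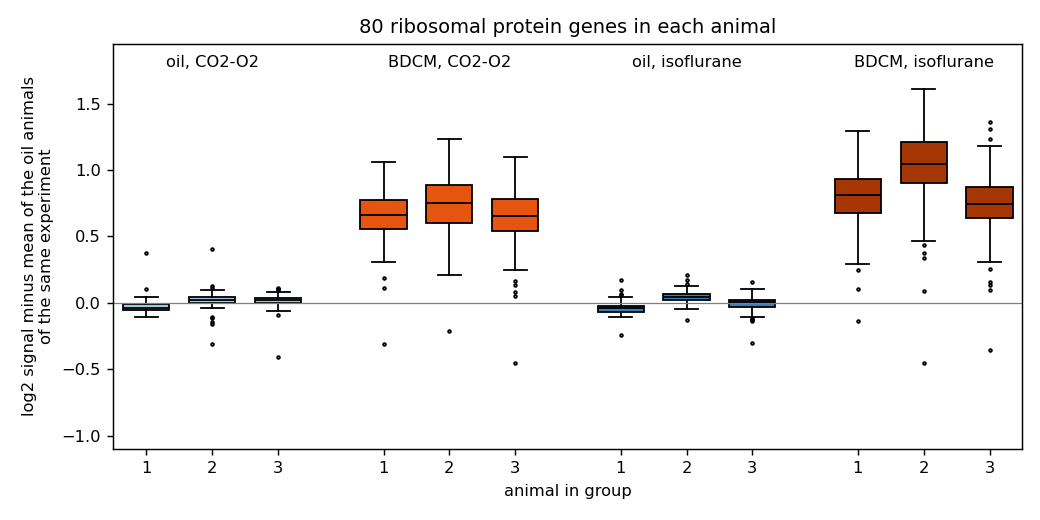
Log2 signal of the 80 tested genes in each of the 12 animals, after subtracting each gene's mean in the oil animals of the same experiment; boxes span the quartiles, the line is the median and whiskers reach 1.5 times the interquartile range. The 6 oil medians lie between -0.04 and 0.05 and the 6 BDCM medians between 0.66 and 1.05.

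In each of the 6 BDCM animals 79 of the 80 genes lay above their mean in the oil animals of the same experiment. The animal medians were 0.66, 0.75 and 0.66 log2 units under CO2-O2 and 0.81, 1.05 and 0.75 under isoflurane. The medians over all features in the same 6 animals lay between -0.06 and -0.02. The oil animals differed from their own group mean by medians of -0.04 to 0.05. The second BDCM animal of the isoflurane experiment had the highest signal of all 12 arrays in 71 of the 80 genes. Every BDCM animal was above every oil animal, in both experiments, for 77 of the 80 genes. Over all features 13.5% were separated in that direction and 13.1% in the opposite one.

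The rise was found in each experiment by itself. Under CO2-O2, 75 of 80 genes rose and none fell (10% and 9.89% of all features), with a median of 0.70 log2 units (1.62-fold, 3 against 3 animals). The 5 that did not pass were Rpl22l1, Rps12l4, Rpl3l, Rpl19 and Rpl18, the last with a difference of 0.21 (limma adjusted p 0.0885). Under isoflurane, 77 rose and none fell (13.2% and 12.9% of all features), with a median of 0.88 (1.84-fold). The rise was larger under isoflurane for 78 of the 80 genes, by a median of 0.18 log2 units. Over all features this difference was positive for 18116 of 34218, with a median of 0.02. Rpl41, 1 of the exceptions (0.32 under CO2-O2 and 0.27 under isoflurane), had its probe saturated in BDCM animals 2 and 3 of the isoflurane experiment. Across the 80 genes, which share arrays and scaling, the rises in both experiments had a Pearson r of 0.961. No gene passed the test of the difference between the experiments (limma interaction term, smallest adjusted p 0.935, and 3 of 80 genes at an unadjusted p below 0.05, namely Rpl30, Rps19 and Rps15a, read off after the values were seen), and 0% of all features did. Without the second BDCM animal the isoflurane median was 0.79.

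**Figure D3:**
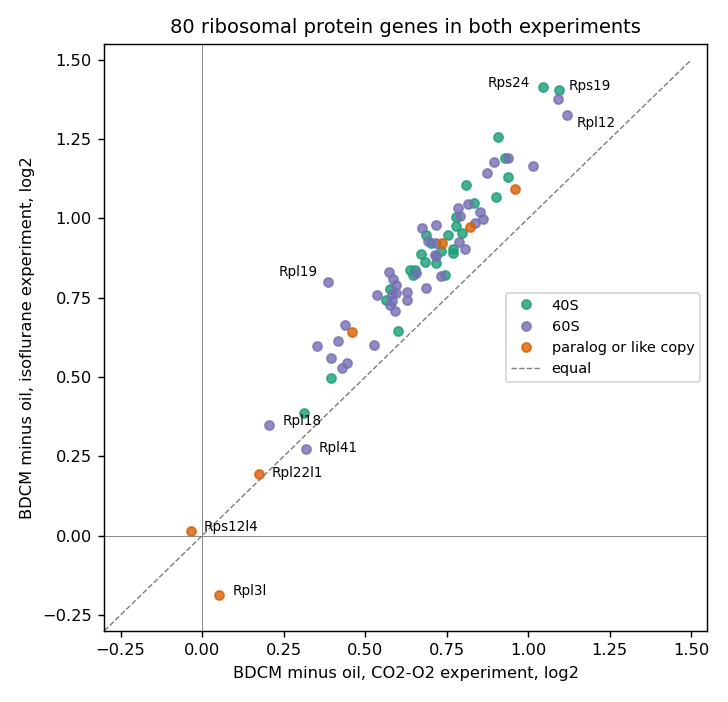
BDCM minus oil on the log2 scale in the CO2-O2 experiment (horizontal) against the isoflurane experiment (vertical), 1 point per tested gene and 3 animals per group; the dashed line marks equal effects. Of the 80 points, 78 lie above the dashed line.

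Rpl19, a 60S protein often used as a reference gene, was the member with the widest spread that still passed the test in the mean of both experiments. Its log2 signals were 7.29, 7.70 and 6.88 in oil and 7.81, 7.79 and 7.43 in BDCM animals under CO2-O2, where the groups overlapped and the difference of 0.39 did not pass (limma adjusted p 0.218). Under isoflurane they were 7.20, 7.31 and 6.80 against 7.83, 8.01 and 7.86, which did not overlap (difference 0.80, limma adjusted p 0.0176). With quantile normalization its mean difference of 0.36 had an adjusted p of 0.0824. Its 4 probes all rose, by 0.59 to 0.74 log2 units.

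Genes that serve as reference genes in PCR work rose with the rest. All 10 of a list chosen with earlier results of these data known rose (median 0.77 log2 units), where 17.7% of all features rose. Under CO2-O2 by itself 9 of the 10 passed, all but Rpl19. Rplp0, a protein of the ribosomal stalk, measured 8.33, 8.36 and 8.43 in oil and 8.98, 8.88 and 9.0 in BDCM animals under CO2-O2. Under isoflurane it measured 8.14, 8.25 and 8.12 against 8.87, 9.12 and 8.95. These groups were separated in both experiments and the mean rise was 1.62-fold (1.48 to 1.77, limma adjusted p 1.02e-05). Rps18 rose 1.76-fold, Rpl32 rose 1.75-fold and Rpl13a rose 1.62-fold.

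All 12 tested genes of a list of ribosomal proteins linked to p53 or to anaemia also rose, with a median of 0.87 log2 units. Over all features 17.7% rose and 20.4% fell. Rpl5 and Rpl11 bind the ubiquitin ligase Mdm2 when ribosome assembly is disturbed and so stabilise p53. Rpl5 rose 1.88-fold (1.69 to 2.09) and Rpl11 rose 1.74-fold (1.59 to 1.90). Rps6, whose phosphorylation is a common read-out of mTOR activity, rose 1.71-fold (1.56 to 1.87) as messenger RNA, and phosphorylation was not measured. Rpsa, which also acts as a laminin receptor, rose 1.72-fold, Rps27 rose 1.72-fold and Rpl39 rose 1.80-fold. Rps6, Rpsa, Rps27 and Rpl39 were fixed genes outside that list.

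Paralogs that can take the place of a standard subunit did not all follow it. Rpl22l1, the counterpart of Rpl22, measured 5.09, 5.08 and 5.01 in oil and 5.17, 5.42 and 5.11 in BDCM animals under CO2-O2, and 5.04, 5.0 and 4.92 against 5.09, 5.33 and 5.12 under isoflurane. The groups were separated by less than 0.1 log2 units, and the mean difference of 0.18 (1.14-fold, 1.02 to 1.26) did not pass the test (limma adjusted p 0.0594). It passed under 6 of 27 other settings, with adjusted p from 0.0186 to 0.441 over all 27. Rpl22 itself measured 5.99, 6.10 and 6.09 against 6.79, 6.89 and 6.86, and 5.81, 5.88 and 5.85 against 6.71, 6.97 and 6.64. It rose 1.81-fold, and the rise of Rpl22 exceeded that of Rpl22l1 by 0.67 log2 units (95% confidence interval 0.54 to 0.81, two-sided exact permutation test within experiments, p = 0.005, adjusted over 5 pairs 0.00833).

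The same test was run on 4 further pairs, with 400 arrangements of the animals and 0.005 as the smallest p they can give. Rpl3 rose by 0.98 log2 units more than Rpl3l, a copy known from skeletal and heart muscle (0.60 to 1.36, exact p = 0.005, adjusted 0.00833). Rpl36a rose by 0.68 more than Rpl36al1 (0.63 to 0.74, exact p = 0.005, adjusted 0.00833). Rps12 rose by 0.75 more than Rps12l4 (0.30 to 1.20, exact p = 0.01, adjusted 0.0125). Between Rps4x and Rps4y2 the difference was 0.13 (-0.01 to 0.26, exact p = 0.06, adjusted 0.06), and both rose, by 0.96 and 0.83. Rpl3l and Rps12l4 differed between treatments by -0.07 and -0.01 log2 units (limma adjusted p 0.747 and 0.97), and their signals were far dimmer than those of the other members. Rpl37al2, which was not among the pairs tested, went the other way. It rose by 1.03 log2 units, and the probes of Rpl37a rose by 0.66 and 0.88. Rps4y2, Rpl36al1, Rpl37al2 and Rpl37l1 are close in sequence to other members, and the part of cross-hybridisation in their signals was not tested.

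**Figure D4:**
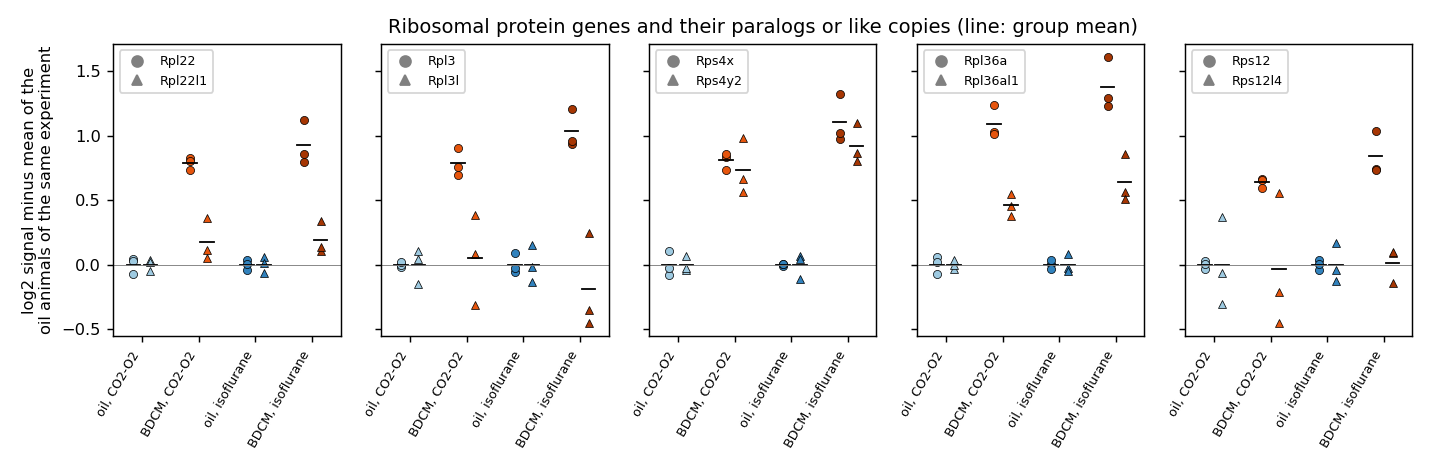
Log2 signal of 5 genes (circles) and their paralog or like copy (triangles) in each animal, after subtracting the gene's mean in the oil animals of the same experiment; short lines are group means of 3 animals. Rpl22, Rpl3, Rpl36a and Rps12 rise above their partners, and Rps4x and Rps4y2 overlap.

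The rise of the genes as a set did not rest on the choice of probe, but its size for single genes did in part. Of the 238 probes tested one by one, 230 rose and none fell, against 17.9% and 20.4% of all 43275 probes. Every tested probe rose for 75 genes. The 8 probes that did not pass were 4 of Rpl22l1 and 1 each of Rpl36a, Rpl3l, Rps12l4 and Rps4y2. Rpl36a was the only gene whose probes differed by over 1 log2 unit: 4 probes rose by 1.23 to 1.30, and a much dimmer one differed by 0.08 (limma adjusted p 0.773). Rpl21, with 8 probes, rose by 0.68 to 1.01 across them. In 59 of the 72 genes with several tested probes the brightest probe, used for the gene, had a smaller rise than the median of the others (medians 0.78 and 0.86).

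Few ribosomal protein genes differed between the oil animals of both experiments. Rpl23a, lower under isoflurane by 0.41 log2 units (limma adjusted p 0.0163), and Rpl14, lower by 0.30 (limma adjusted p 0.0353), were the 2 of 80 that passed, none was higher (3.56% of all features were lower and 7.53% higher), and the median difference was -0.08. Rpl23a measured 4.20, 4.25 and 4.14 under CO2-O2 and 3.74, 3.89 and 3.71 under isoflurane, without overlap. Neither call was made when the pair of isoflurane animals with the most albumin signal, described further on, was left out, and without any single oil animal 0 or 1 call was made. Both calls were those of each gene's brightest probe. The other probes of Rpl23a differed by -0.04 and -0.26 (limma adjusted p 0.897 and 0.0877), and the other Rpl14 probe by -0.32 (0.0244). A dimmer probe of Rps26 was higher by 0.82 (limma adjusted p 0.00192). For Rpl5, Rpl22l1, Rpl27 and Rpl35a 1 dimmer probe each passed as lower. With the mean of all probes of a gene, 1 gene was higher and 1 lower. Among the BDCM animals 5 genes were higher under isoflurane and none lower (11.8% and 5.25% of all features): Rps19 by 0.46, Rpl37al2 by 0.45, Rpl30 by 0.45, Rpl36a by 0.44 and Rps27a, made as a fusion with ubiquitin, by 0.36. Their limma adjusted p lay between 0.0066 and 0.0279, the median over the 80 genes was 0.12, and leaving out single BDCM animals gave 2 to 9 calls. No call was left with the BDCM groups fitted alone and 1 was left at an adjusted p below 0.01, and quantile normalization turned the median to -0.016. Anaesthetic, experiment, slide and scan day cannot be told apart in these comparisons.

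Rack1 and Fau, which belong to the ribosome without the Rpl or Rps name, rose as well. Rack1, a scaffold on the 40S subunit, rose by 1.12 log2 units, from 4.37, 4.28 and 4.28 to 5.32, 5.23 and 5.37 under CO2-O2 and from 4.33, 4.45 and 4.49 to 5.59, 5.93 and 5.46 under isoflurane. Fau, a fusion that yields a 40S protein, rose by 0.40 (limma adjusted p 0.000488). Both were separated between treatments in both experiments. Of 20 tested genes of the list of other TOP messenger RNAs, 18 rose, Vim fell by 0.24 and Eif4a2 did not pass (limma adjusted p 0.0907). Their median was 0.49 log2 units. Over all features 17.7% rose and 20.4% fell. Of the 20 genes 15 rose under CO2-O2 and 18 under isoflurane, against 10% and 13.2% of all features. None of the 20, Vim included, passed as lower in either experiment by itself. Gas5, a host gene of small nucleolar RNAs, rose by 1.11, Npm1, a nucleolar chaperone, by 1.08, and the elongation factor Eef2 by 1.02.

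Factors that build the ribosome rose in part, and their counts stand beside the 17.7% of all features that rose and the 20.4% that fell. Of 59 tested genes of rRNA synthesis and ribosome assembly, 34 rose, 2 fell (Gtpbp4 by 1.01 and Utp4 by 0.25) and 23 did not pass, with a median of 0.28 log2 units. Polr1g, a subunit of RNA polymerase I, rose by 0.89, and Mrto4, which acts in 60S assembly, by 0.71. Of 14 tested chaperones and importers of ribosomal proteins 7 rose and none fell (median 0.21), led by Rpf2, which brings 5S RNA with Rpl5 and Rpl11 to the pre-ribosome (0.69), Ipo4 (0.63) and Nap1l1 (0.51). Of 18 tested regulators of TOP messenger RNAs 4 rose and 2 fell (median 0.08), counts near those shares. Eif4ebp1, which binds the cap-binding protein eIF4E and blocks initiation, rose by 2.64, Pabpc4, a poly(A)-binding protein, by 1.24, Rptor by 0.28 and Rheb by 0.19. Ddit4, an inhibitor of mTOR signalling, fell by 0.83, and Mtor fell by 0.25. In the isoflurane experiment by itself none of the 18 regulators passed as lower. Utp4, Rptor, Rheb and Mtor were named after their values were seen.

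Myc, a transcription factor that drives many genes of ribosome production, was -0.72, -0.25 and -0.42 in oil and 1.31, 2.02 and 2.26 in BDCM animals under CO2-O2. Under isoflurane it was -1.23, -1.50 and -1.23 against 0.27, 2.25 and 1.27. The groups were separated in both experiments and the mean rise was 2.46 log2 units (limma adjusted p 0.000155). Gdf15, a stress-induced cytokine, rose by 1.99 and Ccng1, a p53 target, by 0.65, while Mdm2 and Cdkn1a, also p53 targets, differed by 0.12 and -0.02 (limma adjusted p 0.309 and 0.90). In this list of 8 tested genes 3 rose and none fell, against 17.7% and 20.4% of all features.

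The proteins of the mitochondrial ribosome, encoded in the nucleus but assembled in mitochondria, served as a comparison of the same kind. Of 66 genes 18 rose, 5 fell and 43 did not pass, where 17.7% of all features rose and 20.4% fell. The median was 0.06 log2 units, and that of all features was -0.04. Mrpl23 rose by 0.77, Mrps18b by 0.57 and Mrpl17 by 0.54. The 5 that fell, named after their values were seen, were Mrps9, Mrps25, Mrps31, Mrpl16 and Mrpl50, by 0.16 to 0.29. The 40S and 60S genes had their smallest rises at 0.35 and 0.28, above the median of this list.

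**Figure D5:**
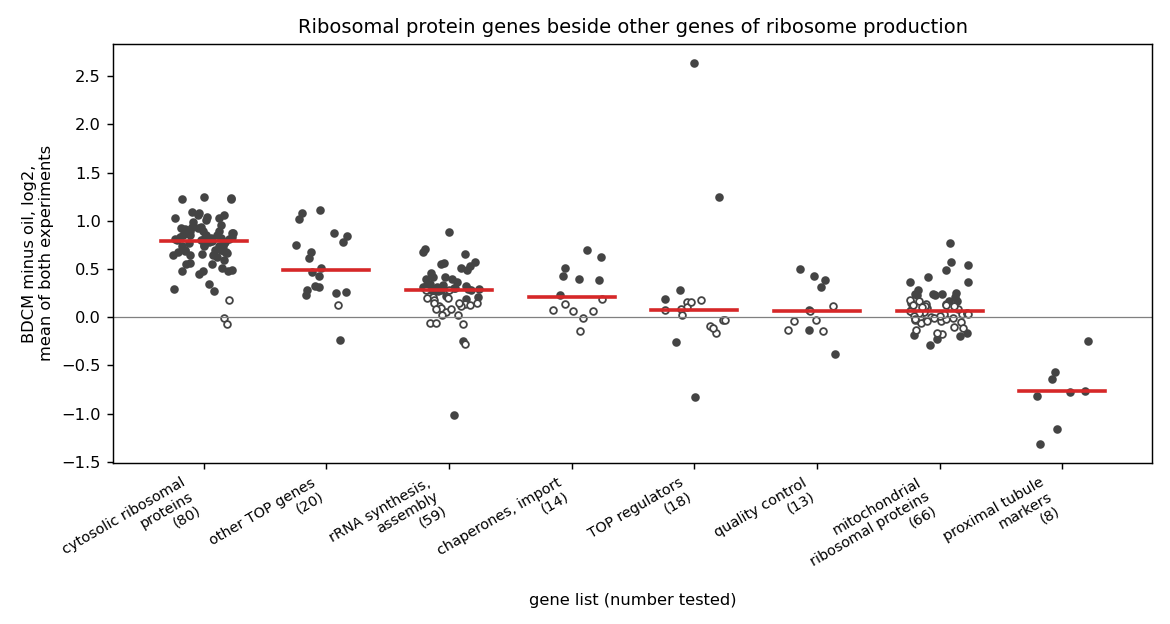
BDCM minus oil on the log2 scale (mean of both experiments) for each tested gene of the cytosolic ribosomal protein genes and of 7 other lists; filled circles passed at adjusted p below 0.05, open ones did not, and red lines are medians. The medians run from 0.79 for the cytosolic ribosomal proteins through 0.49 for the other TOP genes and 0.28 for assembly to 0.06 for the mitochondrial ribosomal proteins and -0.77 for proximal tubule markers.

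Markers of cell types moved in the same animals. All 8 proximal tubule markers were present in every animal and all fell under BDCM (median -0.77 log2 units), their summed signal, in units of each array's 75th percentile, ranging from 1539 to 1656 in oil and 937 to 1187 in BDCM animals under CO2-O2, and from 1820 to 1913 against 846 to 1278 under isoflurane. All 5 tested markers of proliferating cells, of 8 listed, rose (median 0.93), with a summed signal of 6.01 to 8.27 against 7.57 to 17, and 4.49 to 6.15 against 6.37 to 9.87. In each experiment by itself 1 of the 5 proliferation markers passed, where 10% of all features rose under CO2-O2 and 13.2% under isoflurane. None of 5 tested macrophage markers passed, and of 6 tested lymphocyte markers 1 fell. For the mean of both experiments 17.7% of all features rose and 20.4% fell. In bulk cortex a change in the share of a cell type and a change of RNA per cell cannot be told apart, and the part of either in the rise of the ribosomal protein genes was not tested. The summed signal of 10 hepatocyte markers was higher in BDCM animals in both experiments, at 10.6 to 21.7 in oil and 24.9 to 29.0 in BDCM animals under CO2-O2 and 6.43 to 9.08 against 15 to 18.9 under isoflurane. Of these markers 2 rose and 2 fell, and their part in the result was not tested. Single markers also varied between animals: albumin (Alb) was between -8.07 and -0.69 in the isoflurane experiment and between -1.44 and 1.66 in the CO2-O2 experiment, highest under isoflurane in oil animal 3 and BDCM animal 1. Without these 2 animals 77 genes rose and the median was 0.79.

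The 75th percentile of array signal, the value each array was divided by, ranged from 1080 to 1476, and 67.4% to 72.5% of probes were well above background. With 3 animals a group, precision was limited by the number of animals, and the labels do not say whether they shared cages or were handled in parallel. Scan days partly followed treatment: with scan day as a block 78 genes rose (median 0.86), and with slide as a block 77 rose (median 0.84). Both blocks rest, for each experiment, on the few animals that share a slide or a day with the other treatment. Within scan day 1, which held all oil animals and the second BDCM animal of the CO2-O2 experiment, the median rise was 0.75, and within scan day 3, which held all oil animals and the first and second BDCM animals of the isoflurane experiment, it was 0.93. With quantile normalization 75 genes rose and the median was 0.60.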

How the data were processed

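Renal cortex RNA of 12 rats was hybridised to 1-colour Agilent arrays. The deposited intensity values are gProcessedSignal from Agilent Feature Extraction 10.7.1.1, per the file headers (10.7 in the submitters' processing notes), background-corrected and not scaled between arrays. Log2 intensity minus each array's 75th percentile was computed here. The deposited value table holds a ratio, signal over that percentile, per the comparison with the scanner files. Its 6 isoflurane columns equalled their own scanner file and its 6 CO2-O2 columns the file of a different animal within the group, so scanner files were used.

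Of 61657 probes, 27460 had 1 symbol through RefSeq accessions, and the brightest probe stood for a gene. Features well above background in all 3 animals of at least 1 group were tested (34218) with limma 3.58.1 in R 4.3.3: lmFit on 4 group means over 12 arrays, eBayes, Benjamini-Hochberg adjustment, threshold 0.05. The labels state no test. The fit was tested on simulated data with known changes. Promoters were RefSeq's, build GRCr8, 1 start per gene. The members, gene lists and named-gene rule (12 largest and 12 smallest mean rises, 4 and 4 per experiment, up to 5 per direction in other contrasts, genes with discordant probes, fixed genes, up to 3 genes per other list) were chosen with earlier results of these data known. Same-numbered animals did not deviate together (r from -0.02 to 0.05), so numbers were not used as pairs. The alternatives tried were other scalings, background corrections, probe rules, filters, models and blocks, and leaving out animals. Probe sequences and genome positions of probes were not used here, and 1 listed gene is not reported here. Of the further lists, 4 of 13 tested genes of ribosome quality control rose and 2 fell. Among markers, 4 of 5 podocyte and 2 of 2 erythroid markers fell, and 2 of 10 hepatocyte markers rose and 2 fell. Over all features 17.7% rose and 20.4% fell. Under CO2-O2 by itself 1 of the 5 podocyte and 0 of the 2 erythroid markers passed as lower, against 9.89% of all features. Under isoflurane by itself 3 and 2 did, against 12.9%.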

Additional observations from a re-analysis of the deposited data

How the results depend on the processing

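Over 16 settings other than leaving out each animal in turn, 75 to 78 ribosomal protein genes rose in the mean BDCM effect and none fell; 67 to 76 rose under CO2-O2 and 73 to 77 under isoflurane over 17 settings each, and none passed for the difference of effects. Quantile normalization lowered the medians to 0.60 (mean), 0.54 (CO2-O2) and 0.62 (isoflurane), gave 9 calls between the oil groups and turned the median between the BDCM groups to -0.016. Median scaling gave 5 calls and a median of -0.18 between the oil groups, and 3 calls and a median of 0.028 between the BDCM groups. Calls between the oil groups numbered 1 without a filter, 8 with array weights, 0 at an adjusted p below 0.01, 5 with these groups fitted alone, and 0 without the pair of isoflurane animals with the most albumin signal, an alternative chosen, like scan day, after seeing the data. Calls between the BDCM groups numbered 8 with a trended prior, 1 at an adjusted p below 0.01 and 0 with these groups fitted alone. The cause was not tested.

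Leaving out each animal in turn gave 77 to 78 genes for the mean effect (median 0.75 to 0.83), 71 to 75 under CO2-O2 (0.65 to 0.72), 75 to 77 under isoflurane (0.79 to 0.93) and 0 for the difference (median 0.10 to 0.24). It gave 0 to 3 between the oil groups (-0.09 to -0.05; 0 without CO2-O2 oil animal 1 or 2 or isoflurane oil animal 1 or 3, and 1 without CO2-O2 oil animal 3 or isoflurane oil animal 2). It gave 2 to 9 between the BDCM groups: 3 and 2 without the CO2-O2 BDCM animal 1 and 3, and 9 without isoflurane BDCM animal 3. The median between the BDCM groups ran from 0.027, without isoflurane BDCM animal 2, to 0.17. A replicate block, although numbers did not pair the animals, gave 77 genes for the mean effect, 73 under CO2-O2, 76 under isoflurane and 0 for the difference, with medians as before. Of 43 named members called in the mean effect, 40 passed under each of the 27 settings run for single genes; Rpl18, Rpl19 and Rpl41 each failed under 1.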

Other observations

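Genes of ribosome quality control, which sense stalled ribosomes and split them, were called in both directions, 4 of 13 higher and 2 lower, where 17.7% of all features rose and 20.4% fell. Pelo, which binds the empty site of a stalled ribosome, rose by 0.50 log2 units (limma adjusted p 0.000442), Gtpbp2 by 0.43 (0.0117), Abce1, which splits the subunits, by 0.39 (0.000716) and Rnf10, a ubiquitin ligase of 40S proteins, by 0.31 (0.00151). Usp10, which removes ubiquitin from 40S proteins, fell by 0.38 (0.00263), and Edf1 fell by 0.13 (0.0416). The other 7 of 13 tested genes, among them Ltn1, Nemf and Hbs1l, did not pass.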
